A study of Mus musculus with 6 samples.

Results

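The 37 aminoacyl-tRNA synthetase genes of the mouse were followed in primary prostate stromal cells that carried the S37A form of β-catenin or the empty lentiviral vector. The members were chosen by gene symbol: every symbol of 1 capital letter followed by "ars" or "ars2", plus Eprs, Farsa and Farsb. They were 37 of 24346 symbols in the files, 20 for enzymes of the cytosol and 17 for enzymes of mitochondria. The cells were grown from prostates of C57BL/6 mice 8 to 12 weeks old on collagen with 1e-10 M dihydrotestosterone, and were infected with the FU-CGW lentivirus with the S37A β-catenin coding sequence (3 libraries) or with the vector (3 libraries). β-catenin carries the canonical Wnt signal to the nucleus, and the S37A change replaces a serine at which kinases tag the protein for destruction. Whether replicates are independent cultures is not stated in the labels, and the p-values therefore measure a spread that may be technical. The comparison asks which synthetase transcripts differed in level between S37A and vector cells.

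Aminoacyl-tRNA synthetases join each amino acid to its own tRNAs, the step at which the genetic code is read. The cytosolic enzymes charge tRNAs for the ribosomes of the cytosol, and a second set, also encoded by nuclear genes and mostly marked by the suffix 2, is imported into mitochondria. Gars and Kars each make both a cytosolic and a mitochondrial enzyme, and Eprs makes a single protein that charges glutamate and proline tRNAs. Several cytosolic enzymes are held together with 3 scaffold proteins in the multisynthetase complex. When amino acids run short or the endoplasmic reticulum is stressed, the transcription factor ATF4 induces many of the cytosolic synthetase genes together with amino-acid transporters and biosynthetic enzymes.

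ATF4 binds with C/EBP partners at a composite element whose core is TGATGNAA, and the promoter windows that hold these letters show which members carry it beside the start site. The window ran from 250 bases before to 50 after the annotated start (RefSeq, GRCm38.p6, the same assembly as mm10), and both strands were searched, with no other motif. A window was at hand for 12 cytosolic members, of which Aars, Gars, Iars, Tars and Yars (5 genes, 41.7%) held the motif. It was found in 0 of the 14 mitochondrial members with a window. Among others, Lars, Wars, Nars, Vars and Rars had no window. Of all 27025 symbols with a window, 1219 or 4.51% held it. The 30 bases around 1 match in each of the 5 genes are printed on the strand that reads TGATGNAA, with the motif in capitals.
Aars, chr8:111033840-111033869, minus strand, motif 10 bases after the start: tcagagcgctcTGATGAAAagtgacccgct
Gars, chr6:55037960-55037989, minus strand, motif 23 bases before the start: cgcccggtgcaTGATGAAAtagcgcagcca
Iars, chr13:49682126-49682155, minus strand, motif 8 bases after the start: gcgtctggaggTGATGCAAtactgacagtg
Tars, chr15:11399655-11399684, plus strand, motif 8 bases before the start: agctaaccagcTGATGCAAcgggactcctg
Yars, chr4:129189895-129189924, plus strand, motif 4 bases after the start: acgagctcagcTGATGCAAcccgacgggac
The printed motif reads TGATGCAA in Iars, Tars and Yars and TGATGAAA in Aars and Gars. A match of letters is a description of the window and not a shown binding site.

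Levels are given in FPKM, fragments per kilobase of transcript model scaled to the mapped fragments of the library. The deposited interval widths corresponded to 39.0 to 45.0 M fragments in the S37A libraries and 44.4 to 49.0 M in the vector libraries. Ctnnb1, which encodes β-catenin, was at 132, 144 and 146 FPKM in the S37A libraries and at 116, 99.1 and 116 FPKM in the vector libraries, with no overlap. It was higher in S37A by 0.35 on the log2 scale (SE 0.07, limma adjusted p = 0.0158). The deposited values do not separate reads of the introduced coding sequence from reads of the cells' own gene. The 10 stromal markers were all present, with a summed level of 11506 to 11596 FPKM in S37A and 10037 to 10399 FPKM in vector. The smooth muscle genes Acta2, Tagln, Myh11 and Des were higher in S37A, the fibroblast gene Pdgfra was lower (limma adjusted p = 0.0132), and 5 stromal markers were not called. Of the 10 stromal markers 9, all but Pdgfra, had a positive difference, and the median of the list was 0.18 on the log2 scale. Of 12 macrophage markers 10 could be tested and 8 were higher in S37A, with a summed level of 60.8 to 68.9 FPKM in S37A and 23.8 to 30.0 FPKM in vector and no marker at 0 throughout. Of the 6 epithelial and 7 endothelial markers tested 0 were called, and their sums were 10.5 to 20.5 and 95.2 to 98.9 FPKM in S37A, against 13.1 to 19.2 and 99.1 to 113 FPKM in vector. Among all genes tested 6.06% were called higher and 19.9% lower in S37A. The part of these marker differences in the synthetase values was not tested. In bulk RNA, fewer cells of a type and less RNA per cell cannot be told apart.

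All 37 members were expressed above the filter of a mean of 0.5 FPKM, and the cytosolic genes stood well above the mitochondrial ones. FPKM is scaled to model length, which allows only a rough comparison of levels between genes. The mean over the 6 libraries ran from 22.0 to 216 FPKM among cytosolic members (median 42.8 FPKM) and from 0.784 to 19.5 FPKM among mitochondrial members (median 3.91 FPKM). Summed over the 20 cytosolic genes the level was 1246, 1280 and 1278 FPKM in the S37A libraries and 1296, 1431 and 1358 FPKM in the vector libraries. Summed over the 17 mitochondrial genes it was 88.0, 93.8 and 91.9 FPKM in the S37A libraries and 94.9, 94.7 and 98.6 FPKM in the vector libraries. For both sums every S37A library lay below every vector library, with ratios of means of 0.931 and 0.949. Levels of genes in general were shifted the same way. The median over genes of the level relative to the geometric mean of the 6 libraries was 0.962 to 0.982 in S37A. In vector it was 1.02 to 1.04. The sums were not rescaled for this shift, so their separation cannot be read as particular to synthetases.

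**Figure D1:**
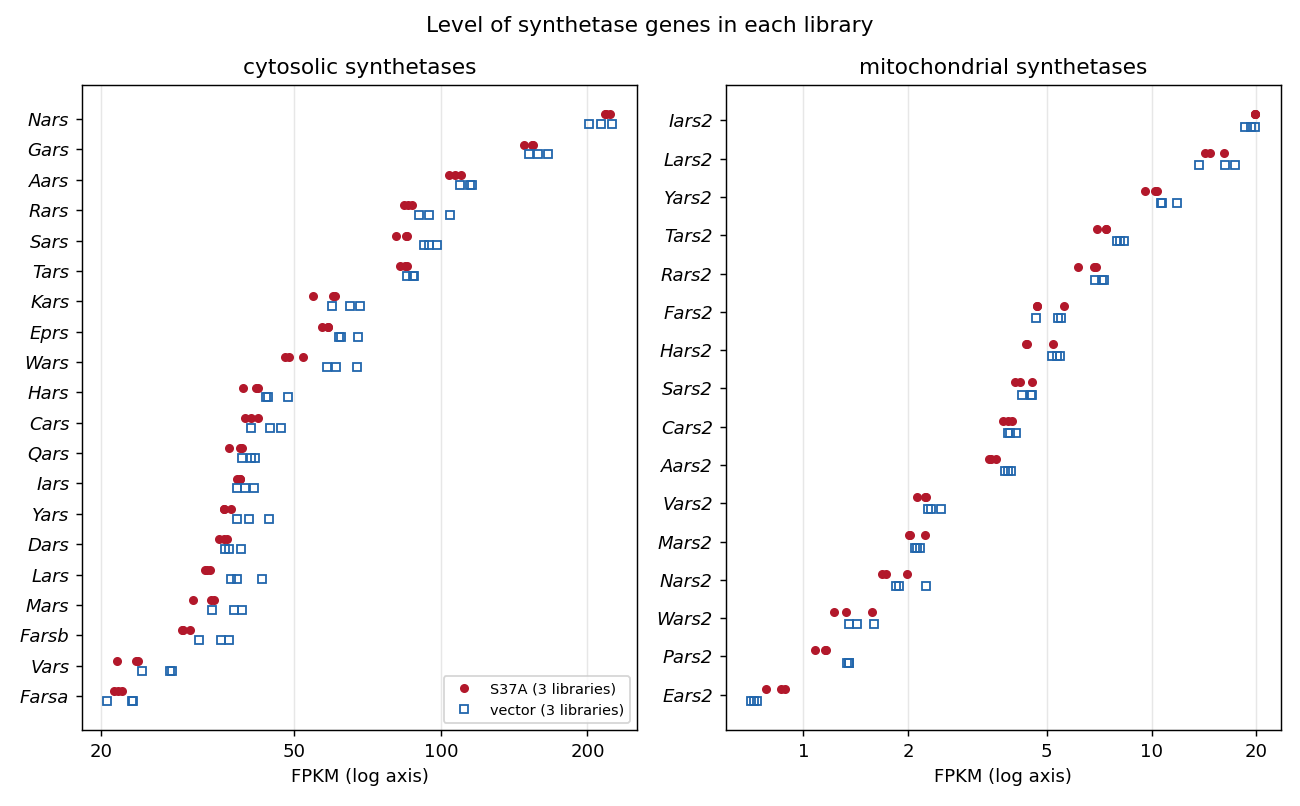
Level of synthetase genes in each library, as FPKM on a log axis, with cytosolic genes on the left and mitochondrial genes on the right, ordered by mean; filled circles are the 3 S37A libraries and open squares the 3 vector libraries. Cytosolic means run from 22.0 to 216 FPKM and mitochondrial means from 0.784 to 19.5 FPKM, and for most genes the groups lie close together.

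Nars, the asparagine enzyme, was the most abundant member, at 223, 217 and 219 FPKM in S37A and 202, 224 and 214 FPKM in vector, where the groups overlapped. Gars, which charges glycine in the cytosol and in mitochondria, was at 148, 154 and 154 FPKM in S37A and 152, 166 and 158 FPKM in vector. Aars, the alanine enzyme, was at 104, 109.9 and 107 FPKM in S37A and 109.3, 116 and 115 FPKM in vector. Gars and Aars also overlapped between the groups, and neither these nor Nars passed the test (log2 differences of -0.06, -0.08 and 0.04, limma adjusted p = 0.286, 0.131 and 0.483). Rars, Sars and Tars formed the next step, with means of 83.6 to 85.6 FPKM in S37A and 86.8 to 96.5 FPKM in vector. In S37A the SDs of these 3 genes, 1.49 to 2.44 FPKM, were of the size of the gaps between them and their order was not resolved. In vector Tars, at 85.1, 87.6 and 87.8 FPKM, lay below Sars and Rars in every library, while Sars and Rars overlapped.

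The 3 lowest cytosolic genes encode enzymes for phenylalanine and valine. Farsa and Farsb encode the α and β subunits of the cytosolic phenylalanine enzyme, a tetramer with equal numbers of each subunit. Farsa was at 21.3, 22.1 and 21.7 FPKM in S37A and 20.6, 23.3 and 23.1 FPKM in vector. Vars, the valine enzyme, was at 21.6, 23.9 and 23.6 FPKM in S37A and 24.3, 28.0 and 27.8 FPKM in vector. Farsa overlapped between the groups (log2 difference -0.04, limma adjusted p = 0.587), while all S37A values of Vars lay below all vector values without passing the test (-0.20, limma adjusted p = 0.0554). Vars was called in 4 of 16 alternative settings.

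Among mitochondrial members, Iars2, the isoleucine enzyme, stood first with 19.8, 19.8 and 19.8 FPKM in S37A and 19.3, 18.5 and 19.8 FPKM in vector. Lars2, the leucine enzyme, was at 14.2, 16.2 and 14.7 FPKM in S37A and 16.3, 13.7 and 17.3 FPKM in vector. Yars2, the tyrosine enzyme, was at 9.54, 10.3 and 10.2 FPKM in S37A and 10.7, 11.9 and 10.6 FPKM in vector. Iars2 and Lars2 overlapped between the groups, Yars2 did not, and none of the 3 was called (limma adjusted p = 0.422, 0.619 and 0.109). In the GENCODE M21 annotation 22.9% of the exon bases of Iars2 are shared with Rab3gap2 on the opposite strand, and as the library kit does not mark strand, its level is uncertain.

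The lowest mitochondrial members were the glutamate, proline and tryptophan enzymes. Ears2 was at 0.784, 0.889 and 0.864 FPKM in S37A and 0.737, 0.723 and 0.707 FPKM in vector. It was the only member whose S37A values all lay above its vector values, beside 11.3% of all genes tested, and it did not pass the test (log2 difference 0.10, 95% interval -0.02 to 0.22, limma adjusted p = 0.179). Pars2 was at 1.15, 1.08 and 1.16 FPKM in S37A and 1.34, 1.35 and 1.36 FPKM in vector, without overlap and without a call (-0.14, limma adjusted p = 0.0650). Wars2 was at 1.22, 1.58 and 1.32 FPKM in S37A and 1.59, 1.42 and 1.35 FPKM in vector, which overlap (-0.05, limma adjusted p = 0.627). Among the 13 mitochondrial members with all FPKM in 1 model, the authors' interval reached 3.60% to 13.8% of the value on either side, with the widest for Ears2, against 1.37% to 5.49% in 15 such cytosolic members. These intervals cover counting error only.

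The cytosolic gene exceeded the mitochondrial gene for the same amino acid in every library, by a factor that differed widely between amino acids. There were 18 such pairs, with Eprs counted against both Ears2 and Pars2, and Farsa and Farsb each against Fars2. For isoleucine the Iars to Iars2 ratio averaged 1.94 ± 0.0130 in S37A and 2.07 ± 0.144 in vector (SD, n = 3 each). For leucine the Lars to Lars2 ratio averaged 2.21 ± 0.161 in S37A and 2.54 ± 0.519 in vector. At the other end the Nars to Nars2 ratio averaged 123 ± 11.3 in S37A and 108 ± 8.22 in vector. These ratios of 3 libraries are descriptions and were not tested, and that of Iars to Iars2 carries the uncertainty of the Iars2 level.

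The ratio did not overlap between the groups for 5 of the 18 pairs. It was lower in all S37A libraries for Eprs to Ears2, Farsb to Fars2, Iars to Iars2 and Sars to Sars2, and higher for Tars to Tars2. Of all genes tested singly, 36.5% lay wholly lower and 11.3% wholly higher in S37A, and ratios of other gene pairs were not examined. For Iars to Iars2 the highest S37A ratio was 1.95 and the lowest vector ratio 1.98, and each gene overlapped between the groups. The Eprs to Ears2 ratio averaged 68.7 ± 3.46 in S37A and 88.4 ± 4.51 in vector (SD, n = 3 each). The Tars to Tars2 ratio averaged 11.5 ± 0.206 in S37A and 10.7 ± 0.140 in vector.

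**Figure D2:**
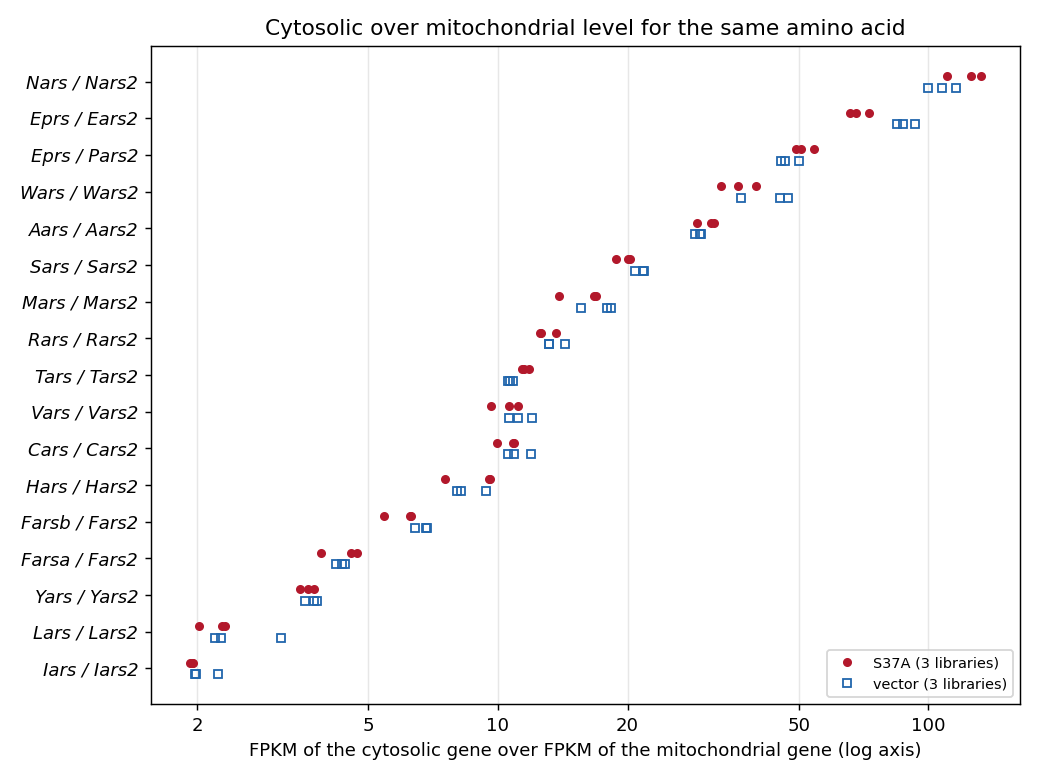
FPKM of the cytosolic gene over FPKM of the mitochondrial gene for the same amino acid, on a log axis, one row for each pair drawn; filled circles are the 3 S37A libraries and open squares the 3 vector libraries. Ratios run from about 1.94 (S37A) and 2.07 (vector) for Iars to Iars2 up to 123 (S37A) and 108 (vector) for Nars to Nars2, with the largest gap between groups for Eprs to Ears2.

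Among cytosolic synthetases 4 fell in S37A, 0 rose and 16 did not pass the test: Wars, Lars, Sars and Farsb, by 12.0% to 20.4% of the vector mean. The 20% of cytosolic members called lower is the same share as among all genes tested, of which 19.9% were lower and 6.06% higher in S37A, 26.0% in all (limma on log2(FPKM + 1), Benjamini-Hochberg adjusted p under 0.05, 12022 genes). Of the 17 mitochondrial members 1 fell, Tars2, and 0 rose. At an unadjusted p under 0.05 there were 10 cytosolic and 5 mitochondrial members, beside 42.7% of all genes tested. The 95% interval included 0 for 22 of the 37 members. The median log2 difference was -0.13 for cytosolic and -0.07 for mitochondrial members, and -0.07 for all genes tested. With 0.1 FPKM added in place of 1 FPKM before the log, these medians were -0.14, -0.10 and -0.08. The difference was negative for 19 cytosolic and 15 mitochondrial members, beside 69.5% of all genes tested. With median-ratio scaling of the libraries, which moves the median of all genes close to 0, the medians were -0.06 and -0.02 and a single member, Wars, was called.

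**Figure D3:**
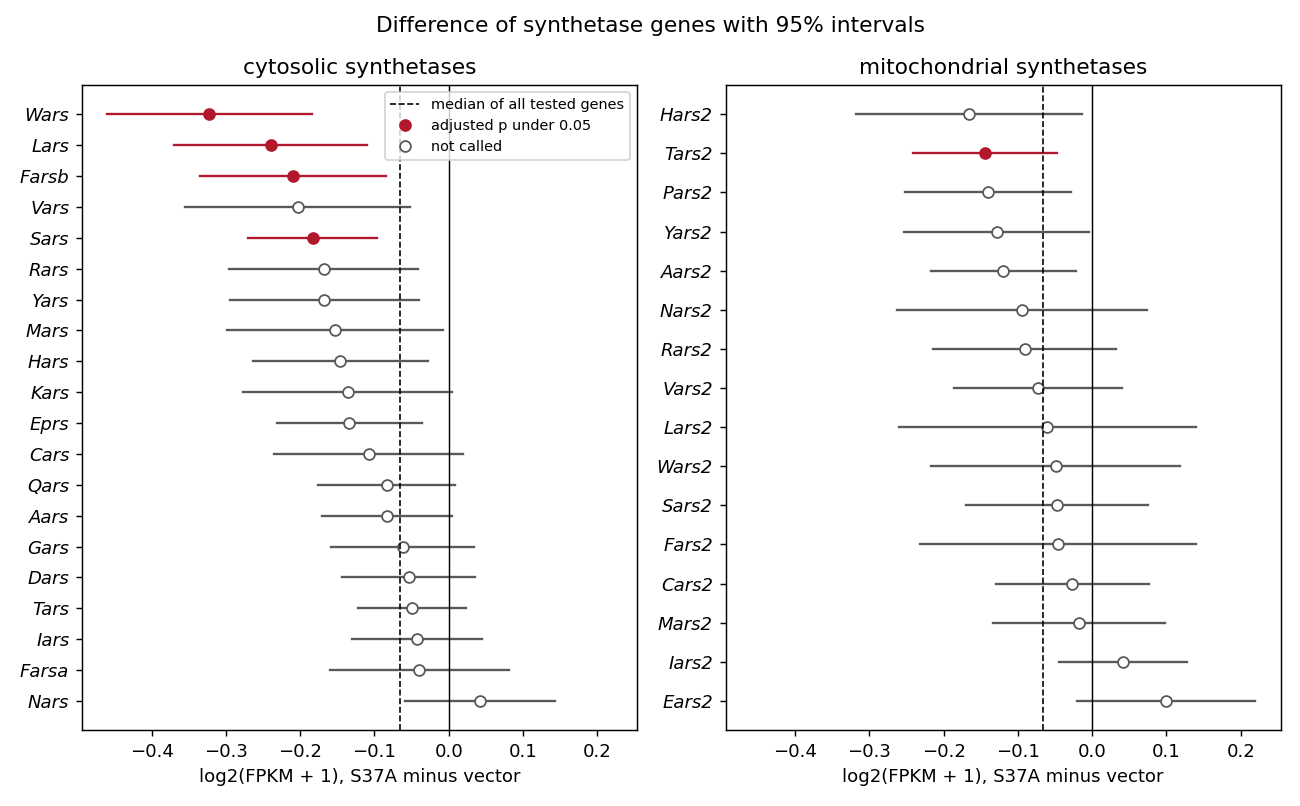
Difference of synthetase genes in log2(FPKM + 1), S37A minus vector, with its 95% interval from limma; filled red points have an adjusted p under 0.05, the solid line is at 0 and the dashed line at the median of all tested genes, -0.07. Wars, Lars, Farsb and Sars among cytosolic genes and Tars2 among mitochondrial genes are called, all below 0.

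Wars, the tryptophan enzyme and also an interferon-inducible gene in other cells, had the largest difference. It lies on chromosome 12 from 108860030 to 108894174 on the minus strand. Its level was 48.6, 52.1 and 47.7 FPKM in S37A and 58.4, 67.3 and 60.9 FPKM in vector. Every S37A library lay below every vector library, and means were 49.5 ± 2.29 FPKM in S37A and 62.2 ± 4.58 FPKM in vector (SD, n = 3 each). On the log2 scale the difference was -0.32 (SE 0.06, 95% interval -0.46 to -0.18, limma adjusted p = 0.0125). The adjusted p ran from 0.00280 to 0.727 over 16 alternatives and the call was lost in 2 of them: without S37A replicate 3 (-0.30, adjusted p = 0.0512) and with the most abundant transcript model alone (-0.07, adjusted p = 0.727).

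Lars, the leucine enzyme, is a part of the multisynthetase complex and is known as a leucine sensor upstream of the growth kinase mTORC1. It lies on chromosome 18 from 42202298 to 42262194 on the minus strand. It was at 33.0, 32.8 and 33.6 FPKM in S37A and 37.1, 43.0 and 38.1 FPKM in vector, with no overlap and with vector replicate 2 apart from the other vector libraries. On the log2 scale S37A minus vector was -0.24 (SE 0.06, limma adjusted p = 0.0232). Without vector replicate 2 the call held, while it was lost under median-ratio scaling (-0.17, adjusted p = 0.0611) and without each S37A library in turn (adjusted p = 0.0569, 0.0715 and 0.0660 without replicates 1, 2 and 3), within a range of 0.00680 to 0.0715 over all alternatives.

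Sars, the cytosolic serine enzyme, also charges the tRNA on which selenocysteine is made. It lies on chromosome 3 from 108424865 to 108445209 on the minus strand. Sars was at 80.8, 85.3 and 84.7 FPKM in S37A and 92.5, 98.1 and 94.7 FPKM in vector, well separated. S37A minus vector came to -0.18 on the log2 scale (SE 0.04, limma adjusted p = 0.0162). It was called in 14 of 16 alternatives, the exceptions being median-ratio scaling (-0.11, adjusted p = 0.0511) and the fit without S37A replicate 3 (-0.19, adjusted p = 0.0548), in a range of 0.00450 to 0.0548.

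Farsb, the β subunit of the phenylalanine enzyme, lies on chromosome 1 from 78417975 to 78488897 on the minus strand. Summed over its models Farsb was at 29.4, 29.5 and 30.4 FPKM in S37A and 31.9, 36.7 and 35.3 FPKM in vector. These sums did not overlap, unlike those of its partner subunit Farsa. They include models that RefSeq lists as non-coding, and each coding model of Farsb overlapped between the groups. S37A minus vector amounted to -0.21 on the log2 scale (SE 0.05, limma adjusted p = 0.0293; 0.00606 to 0.789 over alternatives). The call was lost in 8 of 16 alternatives: without a filter (adjusted p = 0.0537), under median-ratio scaling (-0.14, 0.0901), with the most abundant model alone (0.07, 0.789) and without any single library except vector replicate 1 (0.0706 to 0.0852). Of its exon bases 9.47% are shared with Sgpp2 on the opposite strand, so part of its reads cannot be assigned.

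Tars2, the mitochondrial threonine enzyme, lies on chromosome 3 from 95739976 to 95760206 on the minus strand. Its level was 6.98, 7.40 and 7.42 FPKM in S37A and 7.98, 8.09 and 8.33 FPKM in vector, and the groups were apart. S37A minus vector was -0.14 on the log2 scale (SE 0.04, limma adjusted p = 0.0411; 0.0134 to 0.330 over alternatives). It was lost in 12 of 16 alternatives, among them each scaling (adjusted p = 0.194 with median-ratio scaling, 0.242 with quantile normalization and 0.0718 without the 100 most abundant genes) and each fit without 1 library (0.0517 to 0.117). With 3 libraries a side an exact permutation test (two-sided) cannot go below p = 0.1, and it gave that value for each of the 5 called genes.

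S37A values lay wholly below vector values for 11 of 20 cytosolic and 5 of 17 mitochondrial members, beside 36.5% of all genes tested. The cytosolic ones were the 4 called genes with Eprs, Hars, Qars, Rars, Tars, Vars and Yars, and the mitochondrial ones Tars2 with Aars2, Pars2, Vars2 and Yars2. Of the uncalled cytosolic genes in this group, Eprs came nearest to the threshold (-0.13, limma adjusted p = 0.0515), followed by Vars, Rars (-0.17, 0.0573) and Yars (-0.17, 0.0579). The 95% interval was -0.23 to -0.04 for Eprs and -0.36 to -0.05 for Vars. The remaining uncalled members, such as Cars, Dars, Kars and Mars in the cytosol and Cars2, Fars2, Hars2, Mars2, Nars2, Rars2 and Sars2 in mitochondria, overlapped between the groups (Ears2 apart), and their log2 differences ran from -0.17 (Hars2) to 0.04 (Nars).

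Vector replicate 2 was the highest of the 6 libraries for 19 of 20 cytosolic members, all but Tars, and for 5 of 17 mitochondrial members. Among all genes tested it was the highest for 36.6%. Its sum over cytosolic genes was 1431 FPKM, against 1296 and 1358 FPKM in the other vector libraries. Without it 3 cytosolic members were called lower and the median of the cytosolic set was -0.09, with 10.0% of all genes called lower. Without vector replicate 1, which had the lowest cytosolic sum of the vector group, 9 were called lower and the median was -0.16, with 19.99% of all genes called lower. Without S37A replicate 3 the number of members called was 0, with 5.04% of all genes called lower. The cytosolic median was then -0.15, against -0.13 with all 6 libraries. The number of synthetases called thus changed with single libraries left out, and the share called lower among all genes fell in some of these fits.

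Within the cytosolic set, genes were also grouped by enzyme class, the pair of unrelated protein folds into which synthetases fall, and by membership of the multisynthetase complex. The 9 class I genes had a median log2 difference of -0.17 with 2 called lower, and the 10 class II genes a median of -0.07 with 2 called lower. Among all genes tested 19.9% were called lower and the median was -0.07. The summed class I level was 369, 384 and 380 FPKM in S37A and 399.9, 456 and 424 FPKM in vector, with no overlap. The summed class II level was 819, 838 and 840 FPKM in S37A and 834, 908 and 872 FPKM in vector, which overlap. Nars alone, the only cytosolic member with a positive difference, made up a large part of these class II sums. It held 223, 217 and 219 FPKM in S37A and 202, 224 and 214 FPKM in vector. Its part in the overlap was not tested. Eprs holds an enzyme of each class and was left out of this split. Among mitochondrial members the medians were -0.05 for 9 class I and -0.12 for 8 class II genes, so the order of the classes was the other way round there. The difference between classes was not tested.

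The 8 synthetases of the multisynthetase complex, Dars, Eprs, Iars, Kars, Lars, Mars, Qars and Rars, spanned means of 34.9 to 91.0 FPKM over the 6 libraries. Of these 1 was called lower, Lars, and their median was -0.13. The 12 cytosolic synthetases outside the complex also had a median of -0.13, with 3 called lower, beside 19.9% of all genes tested. The scaffold genes of the complex, Aimp1, Aimp2 and Eef1e1, were not called. Aimp1 averaged 49.2 ± 1.89 FPKM in S37A and 53.2 ± 2.08 FPKM in vector (limma adjusted p = 0.0960), Aimp2 31.7 ± 1.86 FPKM in S37A and 31.5 ± 1.97 FPKM in vector (0.906), and Eef1e1 36.9 ± 0.882 FPKM in S37A and 37.3 ± 2.89 FPKM in vector (0.854).

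The 5 cytosolic genes with the TGATGNAA letters printed above, Aars, Gars, Iars, Tars and Yars, had log2 differences of -0.17 to -0.04 with a median of -0.06, and 0 were called. The 7 cytosolic genes with a window and without the letters had differences of -0.21 to -0.04 with a median of -0.13, and 2 were called, Farsb and Sars. Of all genes tested 19.9% were called lower, with a median of -0.07. Atf4 itself was at 189, 193 and 187 FPKM in S37A and 204, 214 and 217 FPKM in vector and fell by 0.16 on the log2 scale (limma adjusted p = 0.0193). This sets levels of transcripts side by side and shows nothing of ATF4 protein or its binding.

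The 37 genes had 59 transcript models, and 14 genes had more than 1. Of these 9 had more than 1 model above 0, and in 5 a model was at 0 in some libraries and above 0 in others, so the split among models was unsteady while the sum was not. For Wars the 3 models start at separate sites. Its model of 1842 bases was at 8.79, 9.38 and 0 FPKM in S37A and 11.4, 17.1 and 12.4 FPKM in vector. Its model of 2831 bases was at 19.8, 20.3 and 22.6 FPKM in S37A and 20.4, 31.2 and 22.2 FPKM in vector, and that of 2764 bases at 20.01, 22.4 and 25.1 FPKM in S37A and 26.6, 18.95 and 26.2 FPKM in vector. The shortest model alone was separated between the groups, and its listed 0 in S37A replicate 3 went with the highest values of the other models in that group.

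For Farsb the most abundant model, of 2274 bases, was at 18.1, 14.8 and 20.4 FPKM in S37A and 13.9, 21.0 and 16.1 FPKM in vector, in contrast to the separated sums. The other coding model, of 2091 bases, was at 6.92, 9.52 and 10.1 FPKM in S37A and 8.71, 9.68 and 9.82 FPKM in vector. Its models of 2218 and 2176 bases are listed as non-coding in RefSeq. That of 2218 bases was at 4.32, 0 and 0 FPKM in S37A and 5.95, 6.02 and 4.10 FPKM in vector. That of 2176 bases was at 0, 5.14 and 0 FPKM in S37A and 3.35, 0 and 5.22 FPKM in vector. The lower sum of Farsb can thus not be assigned to its coding transcripts. Sars had all of its level in 1 of 2 models in each library, and Lars had a single model, so their values do not depend on such a split. In all, 14 members share exon bases with another gene in GENCODE M21. Among them Hars and Hars2, which lie head to head on chromosome 18, share 195 bases, Mars shares 68 bases with Ddit3, and Aars shares 14.3% of its exon bases with Exosc6 on the same strand.

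Other genes of tRNA charging and amino-acid supply were counted in the same fit, in which 19.9% of all genes tested were lower. Of 9 accessory genes of tRNA charging 1 was lower, Sepsecs, the last enzyme of selenocysteine tRNA synthesis, at 2.92 ± 0.354 FPKM in S37A and 3.74 ± 0.236 FPKM in vector (limma adjusted p = 0.0345). Mitochondria make glutaminyl-tRNA by amidation, and of the 4 genes for this step and for initiator tRNA formylation 2 were lower, Gatb and Qrsl1. Gatb averaged 1.96 ± 0.120 FPKM in S37A and 2.45 ± 0.204 FPKM in vector, and Qrsl1 2.92 ± 0.327 FPKM in S37A and 3.55 ± 0.0470 FPKM in vector (limma adjusted p = 0.0398 and 0.0468). Of 9 mitochondrial translation factors 2 were lower, the elongation factor gene Tsfm and the release factor gene Mtrf1l (limma adjusted p = 0.0404 and 0.0479). Of 7 cytosolic elongation genes 1 was lower, Eif5a, at 464 ± 15.8 FPKM in S37A and 525 ± 31.3 FPKM in vector (limma adjusted p = 0.0423). The calls of Sepsecs, Gatb, Qrsl1, Tsfm, Mtrf1l and Eif5a were each lost in 10 or more alternatives.

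Of 25 amino-acid response genes 8 (32%) were lower, 0 higher and 17 not called, with a median log2 difference of -0.09, beside 19.9% lower and a median of -0.07 for all genes tested. Gdf15, a stress-induced ligand, was at 6.74, 6.83 and 7.32 FPKM in S37A and 11.1, 10.1 and 10.7 FPKM in vector (log2 difference -0.55, limma adjusted p = 0.00231). Trib3, a pseudokinase that restrains ATF4 output, averaged 21.4 ± 1.11 FPKM in S37A and 30.4 ± 2.20 FPKM in vector, and Ddit3, the factor CHOP, 133 ± 3.23 FPKM in S37A and 169 ± 9.56 FPKM in vector (limma adjusted p = 0.00494 and 0.00663). Other known ATF4 targets were not called: Asns, asparagine synthetase, averaged 88.7 ± 1.18 FPKM in S37A and 95.01 ± 9.30 FPKM in vector (limma adjusted p = 0.308).

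Of 17 amino-acid transporters 15 passed the filter, and 7 of these (46.7%) were lower and 0 higher, with a median of -0.16, beside the same 19.9% and -0.07 for all genes tested. Slc7a11, the cystine transporter, was at 3.66, 3.55 and 3.66 FPKM in S37A and 4.89, 6.65 and 5.18 FPKM in vector (log2 difference -0.50, limma adjusted p = 0.0134). Slc7a3, a carrier of basic amino acids, averaged 1.63 ± 0.0644 FPKM in S37A and 2.49 ± 0.294 FPKM in vector (limma adjusted p = 0.0102). Slc7a5, the carrier of leucine and other large neutral amino acids, averaged 47.7 ± 0.742 FPKM in S37A and 49.4 ± 6.69 FPKM in vector and was not called (limma adjusted p = 0.748). Its partner Slc3a2 was at 77.6, 78.6 and 78.9 FPKM in S37A and 84.4, 98.8 and 89.6 FPKM in vector and was called lower (limma adjusted p = 0.0331, with 0.00723 to 0.0997 over alternatives).

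**Figure D4:**
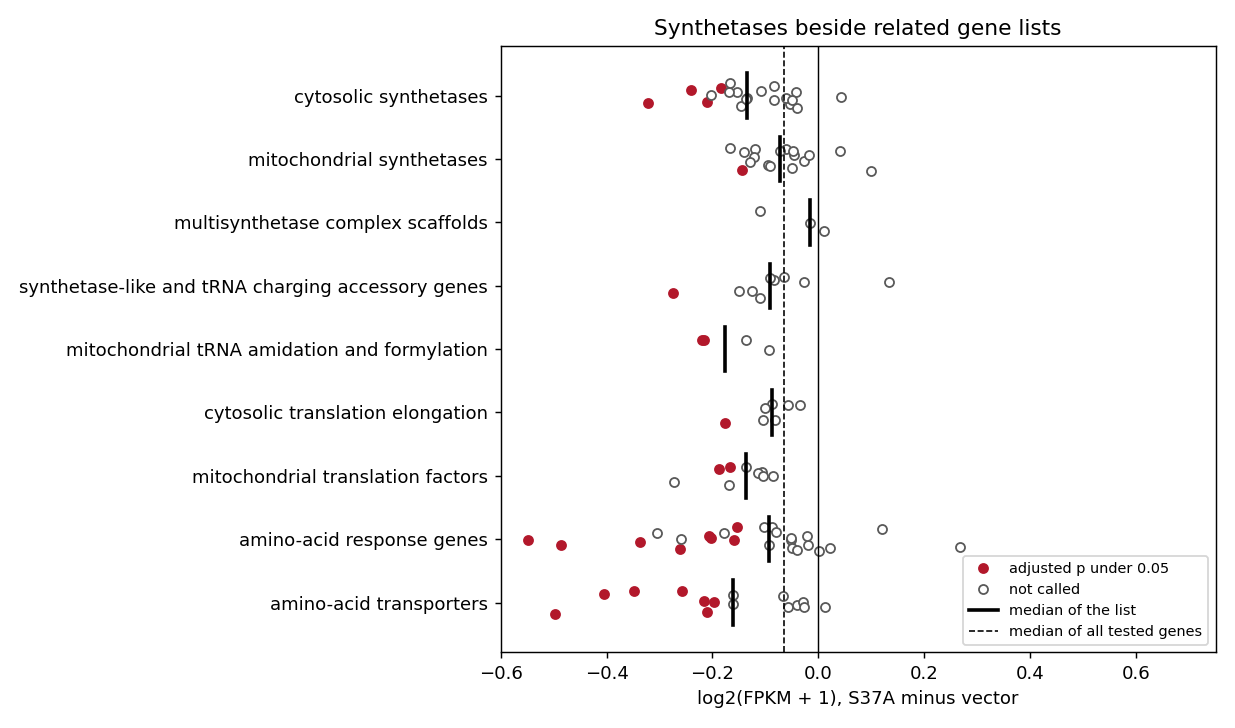
Differences in log2(FPKM + 1), S37A minus vector, of the synthetases and of 7 lists of related genes; each point is a gene, filled red where the adjusted p is under 0.05, and the black bar is the median of the list. The dashed line is the median of all tested genes, -0.07; 4 cytosolic synthetases, 1 mitochondrial synthetase, 8 amino-acid response genes and 7 transporters lie among the called genes, all to the left of 0.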

How the data were processed

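Primary mouse prostate stromal cells were measured by RNA sequencing in 3 S37A and 3 vector libraries, grouped by sample title. Per the labels' protocols, cDNA came from SMART-Seq v4, a chemistry that does not mark strand. Per the submitters' processing notes, the authors used bcl2fastq 1.8.3, TopHat and Cufflinks with mm10, and deposited FPKM with interval bounds per transcript model. The coverage signal in the deposited files was not used. FPKM was summed by symbol over 34535 models, leaving out 5 symbols whose status was not OK. The 12022 genes averaging 0.5 FPKM or more were tested on log2(FPKM + 1), which understates changes of low genes, with limma 3.58.1 (R 4.3.3), its mean-variance trend and without a block; p-values were Benjamini-Hochberg adjusted over all of them, with a threshold of 0.05. The script was tested on simulated data. Depth was inferred from interval widths of genes with 1 model. One member and one sequence are not reported here by name or letters, though totals over the members include them; full values are given for called members, the 3 highest and 3 lowest of each compartment, and, of related lists, among the 4 smallest p, with Atf4, Asns, Slc3a2 and Slc7a5 chosen after their values were seen. Members and lists were chosen with earlier results of these data known. Positions are from GENCODE M21 on mm10 (1-based), sequences from RefSeq on GRCm38.p6. Alternatives were another pseudocount, 2 filters, 3 scalings, no trend, a replicate block, sample weights, the most abundant model and each library left out.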

Additional observations from a re-analysis of the deposited data

How the results depend on the processing

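The number of cytosolic synthetases called lower, 4, became 1 with median-ratio scaling, 2 with the most abundant model alone and 11 with sample weights, and ran from 0 to 9 with 1 library left out. For mitochondrial synthetases the number, 1, became 0 without a filter, with each of the 3 other scalings, with the replicate block and with the most abundant model, 2 without the trend and 4 with sample weights, and ran from 0 to 1 with 1 library left out. The number called higher was 0 in all 16 alternatives for both sets. Among all genes, the 729 higher became 1265 with median-ratio scaling, 1094 with quantile normalization, 442 with the replicate block and 1238 with sample weights, and ran from 298 to 747 with 1 library left out. The 2393 lower became 945, 957 and 1513 with median-ratio scaling, quantile normalization and rescaling without the 100 most abundant genes, 1193 with the replicate block, 3655 with sample weights and 1491 with the most abundant model, and ran from 606 to 2401. The cytosolic median moved to -0.0609 with median-ratio scaling and -0.0835 with the most abundant model (-0.164 to -0.0936 with 1 library left out), and the mitochondrial median to -0.0206 with median-ratio scaling and -0.0072 with quantile normalization (-0.110 to -0.0503). With a pseudocount of 0.1 FPKM the mitochondrial median was -0.100, the cytosolic median -0.137 and the median of all genes -0.0769. The causes were not tested. With the replicate block 5 cytosolic members were called lower. Same-numbered libraries had correlations of -0.12, 0.0207 and 0.104 between their deviations from the group means. Only S37A replicate 3 correlated best with its own number. These values show no pairing by number, but with 3 libraries a group they cannot exclude it.

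Several uncalled members with small differences changed sign with the scaling, and Farsb, which was called, and Pars2 changed sign with the choice of transcript model. With median-ratio scaling the log2 difference was 0.0196 for Dars, 0.0326 for Farsa, 0.0130 for Gars, 0.0306 for Iars, 0.0250 for Tars, 0.0331 for Cars2, 0.0168 for Fars2, 0.0104 for Lars2, 0.0336 for Mars2, 0.0141 for Sars2 and 0.0583 for Eef1e1. With quantile normalization it was 0.0159 for Farsa, 0.0652 for Cars2, 0.0401 for Fars2, 0.0592 for Mars2, 0.0468 for Sars2, 0.0038 for Vars2, 0.0038 for Wars2, 0.0203 for Eef1e1 and 0.0 for Mtfmt. Without the 100 most abundant genes it was 0.0014 for Cars2, 0.0066 for Mars2 and 0.0195 for Eef1e1. With the most abundant model it was 0.0683 for Farsb, 0.268 for Pars2 and -0.0440 for Aimp2. With 1 library left out it ran from -0.152 to 0.0068 for Lars2, -0.0503 to 0.0004 for Mars2, -0.0274 to 0.0582 for Aimp2 and -0.0741 to 0.0346 for Eef1e1. Depth limits the mitochondrial members most: the authors' interval for Ears2 reached 13.8% of its value. No group has 4 or more libraries, so single libraries were not tested as outliers.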
